A study of Mus musculus with 36 samples.

Results

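The cells described here are macrophages of the injured mouse heart that carried more transcripts of Gpnmb, Atp6v0d2 and Ifi202b than of 2 other marker sets, and they are called Gpnmb-led macrophages below. They were chosen by the UMI counts of these and 25 other genes in each well. A macrophage well held at least 1000 unique molecular identifiers (UMIs, each standing for 1 counted transcript), at least 1% of them from Lyz2, Ctss, C1qa, C1qb, C1qc, Cd68, Csf1r and Mrc1 together, under 1% from S100a8 and S100a9, and under 2% from 5 collagen and matrix genes (Col1a1, Col1a2, Col3a1, Dcn and Lum). Among these wells, a well was Gpnmb-led when its UMIs of Gpnmb, Atp6v0d2 and Ifi202b were above both the sum of Lyve1, Folr2, Cd163, Vsig4, Cbr2 and Fcna (the Lyve1 set) and the sum of a set of 4 genes that includes Ccr2, Cxcl3 and Thbs1. Of 3101 wells with at least 1000 UMIs, 404 were macrophage wells, and 131 of these were Gpnmb-led. Another 98 were led by the Lyve1 set, and the remaining 175 are not compared here.

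Gpnmb is a transmembrane glycoprotein of late endosomes and lysosomes that is abundant in macrophages loaded with engulfed material. Such cells break down dead cells and lipid in lysosomes, which the vacuolar ATPase, a proton pump of many subunits, keeps acid. Atp6v0d2 encodes an isoform of a subunit of that pump that is known from osteoclasts and some macrophages, and Atp6v0d1 encodes its widely expressed counterpart. Ifi202b belongs to the interferon-inducible HIN-200 family of DNA-binding proteins. Uptake of material was not measured in these wells, so the name rests on transcripts only.

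The wells came from male C57BL/6 mice aged 8 weeks. The tissue was the infarcted part of the left ventricle, with its border zone by the paper's account, or the matching region after sham surgery. The wells were measured with SORT-seq, in which 1 sorted cell is placed in each of 384 wells and transcripts are tagged at their 3′ end. Sham surgery gave 4 plates at day 1 and 7 at day 14. Ischemia-reperfusion (IR), a ligation of the left anterior descending artery for 1 h followed by release, gave 9 plates at day 1, 7 at day 3 and 3 at day 14, and myocardial infarction (MI) surgery, a permanent ligation, gave 5 plates at day 3. Sham hearts of day 3 were not analysed here. The plates held between 176614 and 5551870 UMIs each, and the MI plates carry a protocol label of their own, so that the batch and the MI group cannot be told apart. A further day 14 sham plate, replicate 2, was left out because 77 of its wells matched wells of day 14 sham replicate 7, and 16 matched wells of day 3 IR replicate 6. Of these 16, 10 held at least 1000 UMIs and 6 met the rule for Gpnmb-led macrophages. Day 1 IR replicates 5 and 9 shared 6 wells, none of them Gpnmb-led.

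Almost all Gpnmb-led macrophages came from day 3, and so did most macrophage wells. Day 3 IR held 114 of the 131 (87.0%), day 3 MI held 16 (12.2%) and day 14 IR held 1. They made up 63.0% of the 181 macrophage wells of day 3 IR and 9.94% of the 161 of day 3 MI. None was found among 34 macrophage wells of day 1 IR, which allows a share of up to 8.82%, nor among 17 of day 1 sham and 5 of day 14 sham, which allow up to 17.6% and 60% (3 counts of the total, for counting error only). The groups without them thus have few macrophage wells, and a share below these limits was not detectable.

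**Figure D1:**
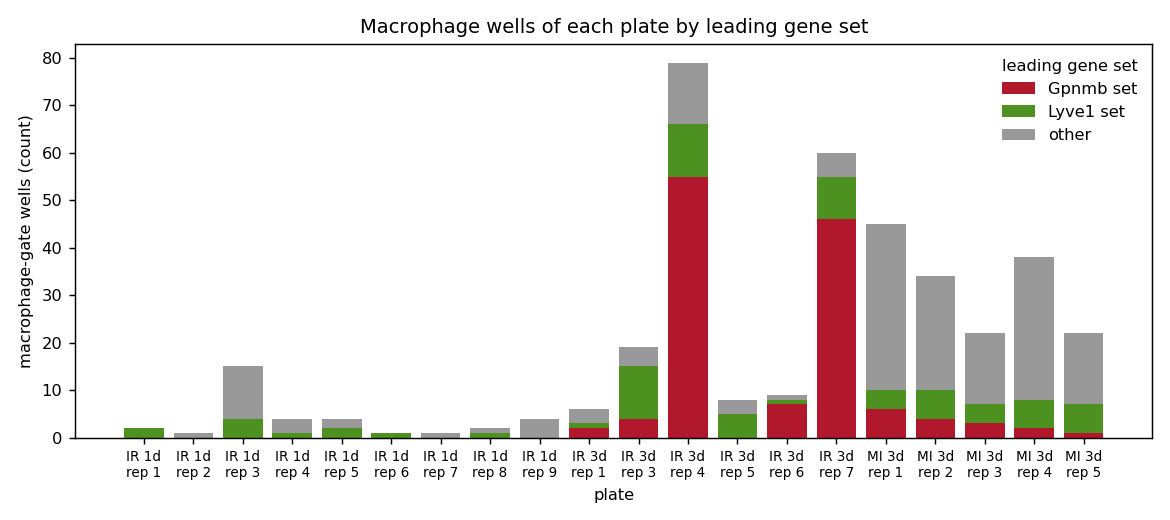
Macrophage wells on each plate, stacked as Gpnmb-led, Lyve1-led and other wells. Gpnmb-led wells fill most of the bars of day 3 IR replicates 4 and 7 (55 of 79 and 46 of 60), and the 5 MI plates hold 1 to 6 of them each.

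Within day 3 IR the plates were uneven. Replicates 4 and 7 held 55 of 79 macrophage wells (69.6%, 95% exact Clopper-Pearson interval 58.2 to 79.5%) and 46 of 60 (76.7%, 64.0 to 86.6%). Replicates 1, 3, 5 and 6 held 2 of 6, 4 of 19, 0 of 8 and 7 of 9, and replicate 2 had no macrophage well. The 5 MI plates held 6 of 45, 4 of 34, 3 of 22, 2 of 38 and 1 of 22. On plates with at least 10 macrophage wells the share was 55.8% ± 30.3 (SD, n = 3 plates, 21.1 to 76.7%) at day 3 IR and 9.71% ± 4.45 (SD, n = 5, 4.55 to 13.6%) at day 3 MI, and the plates of the groups did not overlap. Of all wells with at least 1000 UMIs the share was 14.2% ± 8.78 (n = 6 plates, 0 to 22.8%) and 2.15% ± 1.22 (n = 5, 0.926 to 4.03%), and there the groups did overlap, since day 3 IR replicate 5 had none. These shares are set by the genes of the rule, so they are given without a test.

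Depth differed between the groups, and the rule compares sums of UMIs. The median Gpnmb-led well held 11336.5 UMIs (1020 to 86388) and 3354 genes at day 3 IR against 32937.5 UMIs (4169 to 68662) and 5775.5 genes at day 3 MI. The median share of mitochondrial transcripts, counted apart, was 11.7% (4.54 to 84.6%) and 6.84% (4.68 to 27.8%). When every well was thinned to 1000 UMIs, 100 of 180 macrophage wells (55.6%) were Gpnmb-led at day 3 IR and 13 of 173 (7.51%) at day 3 MI. The thinned wells of day 1 IR held 1 Gpnmb-led well among 36, and those of day 14 IR 0 among 6. The classes compared below differed in depth as well, since the median Lyve1-led well held 2604 UMIs at day 3 IR and 24531 at day 3 MI.

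Many macrophage wells of MI held Gpnmb without being Gpnmb-led. At least 10 UMIs of the Gpnmb set were counted in 101 of 181 macrophage wells of day 3 IR (55.8%) and in 58 of 161 of day 3 MI (36.0%). Of the 101 at IR, 90 were Gpnmb-led, and of the 58 at MI, 16 were. Of those that were not, 2 at IR and 3 at MI were Lyve1-led. At day 1 IR, 2 of 34 macrophage wells reached 10 UMIs, and neither was Gpnmb-led or Lyve1-led.

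**Figure D2:**
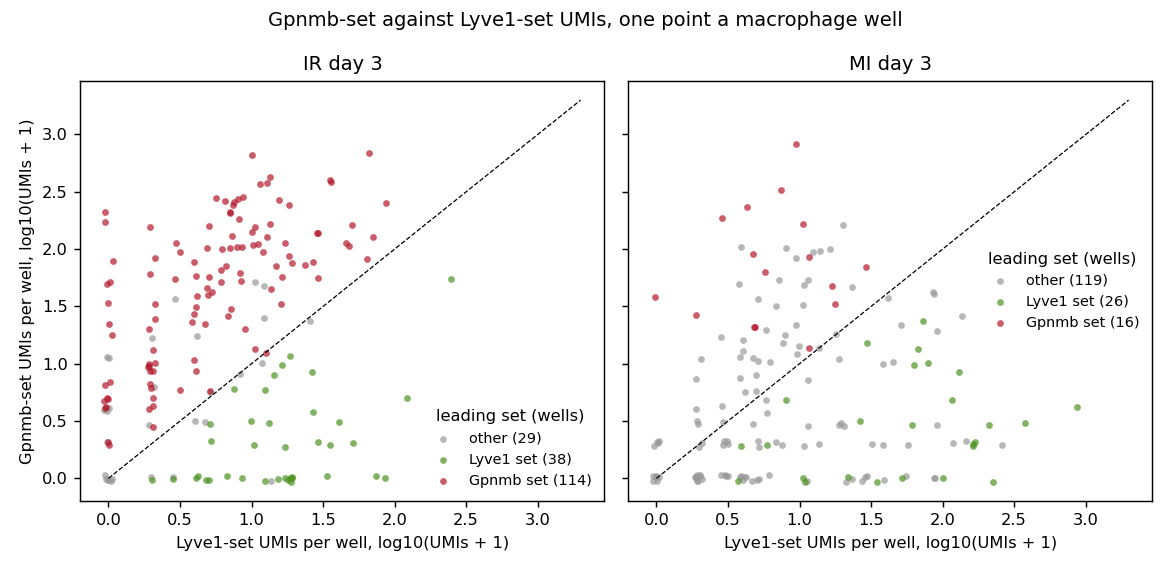
UMIs of the Gpnmb set against UMIs of the Lyve1 set in each macrophage well, as log10(UMIs + 1) with a small random offset, at day 3 IR (left) and day 3 MI (right); the dashed line marks equal counts. At IR 114 wells are Gpnmb-led, 38 Lyve1-led and 29 neither, and at MI 16, 26 and 119, with many of the 119 above the line.

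Most Gpnmb-led wells were far from the limit of the rule. The lead over the higher of the other sets was 10 UMIs or more in 97 wells, 2 to 9 in 27 and exactly 1 in 7, with a median of 43 and a maximum of 681. Just outside the rule, 7 wells were tied above 0 and 6 were 1 UMI behind. The median Gpnmb-led well held 62 UMIs of the Gpnmb set and 5 of the Lyve1 set.

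Gpnmb carried the rule. It gave 13014 UMIs in the 131 wells, 92.8% of the set, against 607 (4.33%) from Atp6v0d2 and 403 (2.87%) from Ifi202b. It was counted in 130 of the wells, Atp6v0d2 in 49 and Ifi202b in 77. All 3 genes were present in 33 wells, and 38 wells held Gpnmb alone of the 3. As the rule chose the wells by these genes, this describes the choice and is no test of the name.

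In levels summed over the Gpnmb-led wells of each plate, Gpnmb was at 1369.7, 1827, 6464, 6286 and 6446 CPM (UMIs per 1000000) on day 3 IR replicates 1, 3, 4, 6 and 7. On the 5 MI plates it was at 1941, 6977, 2297, 1374 and 5862 CPM. The means were 4479 ± 2635 (SD, n = 5) and 3690 ± 2544 CPM (SD, n = 5), so the groups overlapped. In Lyve1-led wells, where the rule itself sets a lower level, it was at 0, 508 and 326 CPM on IR replicates 3, 4 and 7 and at 93.3, 244 and 348 CPM on MI replicates 1, 2 and 3.

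Gpnmb UMIs also occurred in wells that were not macrophages. Among wells with under 0.1% macrophage transcripts, 39.7% of 239 at day 3 IR (127 CPM, median depth 3082 UMIs) and 39.2% of 222 at day 3 MI (16.1 CPM, 26318 UMIs) held a Gpnmb UMI, against 99.1% of Gpnmb-led wells at IR (6403 CPM over all wells) and 100% at MI (3897 CPM). With each well thinned to 1000 UMIs the shares were 13.4% and 4.1% in the non-macrophage wells and 93.0% and 68.8% in the Gpnmb-led wells. At day 1 IR the non-macrophage wells were at 2.95 CPM, with a UMI in 2.03% of them. The level in non-macrophage wells was thus higher at the stages where Gpnmb-led macrophages were present.

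Atp6v0d2 was low and uneven in the same wells. It was at 0, 406, 339, 167 and 240.1 CPM on day 3 IR replicates 1, 3, 4, 6 and 7 and at 138, 253, 0, 121 and 446 CPM on the MI plates. The means were 230 ± 158 and 192 ± 168 CPM (SD, n = 5 each), a difference smaller than the spread between plates. A UMI was found in 36.8% of Gpnmb-led wells at IR and 43.8% at MI, against 6.69% and 1.80% of non-macrophage wells. With each well thinned to 1000 UMIs, Atp6v0d2 was found in 12.3% and 12.5% against 1.67% and 0.45%. Its widely expressed counterpart Atp6v0d1, which the rule did not use, was at 439 ± 324 CPM at IR and 312 ± 107 CPM at MI (SD, n = 5 each). Atp6v0d1 passed no test, with a log2 fold change of 0.27 ± 0.33 (SE) against Lyve1-led wells (edgeR quasi-likelihood test, Benjamini-Hochberg adjusted p = 0.97).

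Ifi202b was a gene of 3 plates. In Gpnmb-led wells it was at 276, 229 and 162 CPM on day 3 IR replicates 4, 6 and 7, and at 0 on IR replicates 1 and 3. It was listed at 0 on all 5 MI plates, where 0 of 544785 UMIs allows up to 5.51 CPM. The same 3 plates carried it outside the Gpnmb-led wells too, with 153 and 75.3 CPM in the Lyve1-led wells of replicates 4 and 7. Over all wells of at least 1000 UMIs, 561 of 570 Ifi202b UMIs (98.4%) were on these 3 plates, at 114 to 144 CPM, and the highest of the 31 other plates was at 23.6 CPM. Non-macrophage wells of day 3 IR held an Ifi202b UMI in 7.11% of cases, against 67.5% of the Gpnmb-led wells. With each well thinned to 1000 UMIs the shares were 1.67% and 21.1%. All plates are labelled C57BL/6, with no substrain and no mouse given for a plate, and whether the mice of the 3 plates differ in genotype from the others was not tested. The 3 plates are 3 of the 4 IR plates compared with MI below. Without Ifi202b in the rule, 126 wells were Gpnmb-led, 109 at day 3 IR and 16 at day 3 MI.

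Promoters are shown for Gpnmb and Ifi202b of the rule, for Atp6v0d1, and for Ctsl from the lysosomal comparison below. RefSeq promoters of GRCm38.p6, which run from 250 bases before to 50 after the start of a gene, were searched on both strands for CACGTG, the E-box at the core of the lysosomal CLEAR element bound by the MiT/TFE factors, for TCATGTG, the M-box of the same factors, and for TGACTCA, a site of AP-1. Capitals mark a match. Gpnmb lies on chr6:49036546-49070929 (plus strand), Atp6v0d2 on chr4:19876841-19922605 (minus strand) and Ifi202b on chr1:173962568-173982744 (minus strand) of GRCm38. These gene positions are from a second annotation, whose starts of Gpnmb and Ifi202b differ from those of the promoters. Positions of matches count from the start used for the promoter. The sequences read 5′ to 3′ on the strand of the gene, from chr6:49036268-49036567 (plus) for Gpnmb, chr1:173982795-173983094 (minus) for Ifi202b, chr13:64370471-64370770 (minus) for Ctsl and chr8:105566015-105566314 (minus) for Atp6v0d1. Atp6v0d2 and Fabp5 had no entry in the table.
Gpnmb: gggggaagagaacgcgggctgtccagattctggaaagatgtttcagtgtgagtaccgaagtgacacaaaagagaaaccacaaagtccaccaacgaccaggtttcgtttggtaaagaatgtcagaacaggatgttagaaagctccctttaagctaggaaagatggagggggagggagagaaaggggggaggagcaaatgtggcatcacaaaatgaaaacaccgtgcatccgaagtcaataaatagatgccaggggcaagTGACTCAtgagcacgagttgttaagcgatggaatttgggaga
Ifi202b: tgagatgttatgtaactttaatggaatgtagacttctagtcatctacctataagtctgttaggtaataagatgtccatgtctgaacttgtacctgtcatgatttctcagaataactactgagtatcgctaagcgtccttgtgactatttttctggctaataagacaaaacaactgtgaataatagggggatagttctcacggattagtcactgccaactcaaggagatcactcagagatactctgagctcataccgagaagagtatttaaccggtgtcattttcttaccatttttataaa
Ctsl: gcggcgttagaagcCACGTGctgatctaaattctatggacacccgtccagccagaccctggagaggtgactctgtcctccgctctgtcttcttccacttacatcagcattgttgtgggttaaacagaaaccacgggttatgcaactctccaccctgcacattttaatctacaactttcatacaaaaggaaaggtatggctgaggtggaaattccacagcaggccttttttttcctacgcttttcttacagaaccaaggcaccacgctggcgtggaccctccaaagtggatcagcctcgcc
Atp6v0d1: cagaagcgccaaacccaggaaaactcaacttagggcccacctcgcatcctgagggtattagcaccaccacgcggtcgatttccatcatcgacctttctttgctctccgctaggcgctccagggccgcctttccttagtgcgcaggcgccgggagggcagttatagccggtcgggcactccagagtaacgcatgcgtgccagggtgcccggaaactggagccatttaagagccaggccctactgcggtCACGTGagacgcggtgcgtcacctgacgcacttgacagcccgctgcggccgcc
The Gpnmb window held TGACTCA at position 8 after the start, the Ctsl window CACGTG at position -236 and the Atp6v0d1 window CACGTG at position -3, and the Ifi202b window held none of the 3. CACGTG occurred in 7.24% of all 27025 promoters and in 4 of the 12 vacuolar ATPase genes with an entry (Atp6v0b, Atp6v0d1, Atp6v0e and Atp6v1a). It also occurred in 8 of 26 genes of the lysosomal list, which includes the lipid droplet gene Plin2 among the 8. Among genes higher in Gpnmb-led than in Lyve1-led wells on plates with at least 3 wells of each, described below, it occurred in 8 of the 41 with an entry (Atp6v1a, Ctsl, Gla, Kcnn4, Nceh1, Osbpl8, Pdpn and Plin2), and among genes lower in 3 of 74. TCATGTG occurred in 3.74% of all promoters, in 0 of the 12 vacuolar ATPase and 4 of the 26 lysosomal genes (Gla, Grn, Scarb2 and Tpp1), in 1 of the 41 and in 3 of the 74. TGACTCA occurred in 5.17% of all, in 0 of the 12 and 2 of the 26 (Glb1 and Psap), in 3 of the 41 (C3ar1, Psap and Slc37a2) and in 3 of the 74. These matches describe the letters of the windows and say nothing of binding.

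Lysosomal and secreted products were among the most abundant transcripts of Gpnmb-led wells. Averaged over the 7 plates with at least 3 such wells, the cathepsin Ctsb was at 20303 ± 5676 CPM (SD), rank 3 of all genes. The secreted phosphoprotein Spp1 was at rank 8 with 8699 ± 3679 CPM, and Psap, the precursor of the saposins that help digest sphingolipids, at rank 9. Gpnmb itself was at rank 14 with 4605 CPM, just below the galectin Lgals3 and above the cathepsin Ctsl and the fatty acid chaperone Fabp5. Atp6v0d1 was at rank 471, Atp6v0d2 at 725 and Ifi202b at 1876. As 1 transcript gives 1 tag whatever its length, these levels were not divided by gene length. Lyz1 and the Lyz2 of the rule are near-identical copies, so their split is uncertain.

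The 16 macrophage identity genes kept outside the rule made up 1.06 to 1.48% of the UMIs of Gpnmb-led wells on the 4 IR plates with at least 3 of them, against 1.01 to 1.25% in Lyve1-led wells. On the MI plates they made up 0.964 to 1.01% in Gpnmb-led and 0.793 to 1.33% in Lyve1-led wells, so the classes overlapped at both injuries. Markers of other cells were scarce but not absent. UMIs of the T and NK cell list occurred in 7 of the 131 wells, of the B cell list in 14 and of the erythrocyte list in 0. Neutrophil genes occurred in 96 wells (median 0.0133% of UMIs), fibroblast genes in 129 (0.0689%), endothelial genes in 93, mural genes in 61 and dendritic cell genes in 51. Cardiomyocyte genes occurred in 130 of the 131 wells, with a median of 0.275% and a maximum of 14.2% of UMIs, and 16 wells were at 1% or more. Doublets were not called, and the part of other cells in the results was not tested.

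Which genes went with the Gpnmb lead was asked against Lyve1-led macrophages of the same plates, the class that carries markers of resident cells, with UMIs summed per plate and class. Gpnmb-led wells had more transcripts of the fatty acid genes Fabp4, Fabp5 and Lpl, of the lysosomal genes Ctsl and Psap and of Spp1, and fewer of Cxcl2, Egr1, Klf2 and Gas6. Only day 3 IR replicates 4 and 7 held at least 5 wells of both classes, and there 19 of 5069 genes outside the rule differed (0.375%), 8 higher (0.158%) and 11 lower (0.217%), by edgeR's quasi-likelihood test with Benjamini-Hochberg adjustment (edgeR adjusted p below), with 1 residual degree of freedom. With at least 3 wells on 6 plates (IR replicates 3, 4 and 7 and MI replicates 1, 2 and 3) 156 of 4410 differed (3.54%), 58 higher (1.32%) and 98 lower (2.22%), and 17 of the 19 were among them. Without MI replicate 1 or 2 the 156 became 87 or 91. The wells were split by genes measured in the same wells, so these tests say which other genes went with the split. A gene that did not pass is not thereby shown to be equal between the classes. Values in parentheses after a gene are its log2 fold change on the 6 plates, with the SE where given, and its edgeR adjusted p, and values with 5 wells are named as such.

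Of 17 lipid handling genes tested on the 6 plates 7 rose and 0 fell, with a median log2 fold change of 0.79 against -0.02 over all genes tested. On IR replicates 3, 4 and 7 and MI replicates 1, 2 and 3, in that order, Fabp5 was at 812, 3973, 3109, 3220.1, 6902 and 4049 CPM in Gpnmb-led and 0, 617, 251, 73.3, 1161 and 490.2 CPM in Lyve1-led wells (3.40 ± 0.29, edgeR adjusted p = 1.45e-13). Fabp4, its relative, was at 609, 606, 608, 390.2, 322 and 187 against 221, 65.4, 377, 59.97, 115 and 77.4 CPM (1.91 ± 0.29, 5.03e-06). Lpl, the lipoprotein lipase, was at 1624, 2603, 1465, 1872, 2583 and 617 against 589, 944, 1205, 139.9, 70.5 and 309.6 CPM (2.12 ± 0.35, 1.9e-05). All 3 genes were higher in the Gpnmb-led wells of each of the 6 plates, and IR replicate 3 rests on 0 to 8 UMIs per gene and class. The galectin Lgals3 (1.31 ± 0.24, 0.000145), the lipid droplet coat gene Plin2 (1.27 ± 0.27, 0.000905), the cholesteryl ester hydrolase Nceh1 (1.11 ± 0.25, 0.00275) and the lysosomal acid lipase Lipa (0.78 ± 0.24, 0.0479) rose too. With 5 wells on IR replicates 4 and 7, Fabp5 (3.09 ± 0.30, 0.000813) and Lgals3 (1.46 ± 0.23, 0.0221) rose of 18 tested, with a median of 0.71 against 0.03. Fabp4 was at 1.97 ± 0.50 (0.152) there and Lpl at 0.96 ± 0.30 (0.359).

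Some lipid genes were also frequent in wells without macrophage transcripts, and their part in the levels above was not tested. With every well thinned to 1000 UMIs, Lpl had a UMI in 67.5% of Gpnmb-led and 78.7% of non-macrophage wells of day 3 IR, and Cd36 in 45.6% and 55.6%. At MI the order was the other way, with 56.3% and 9.91% for Lpl and 31.3% and 13.1% for Cd36. Fabp4 had a UMI in 28.1% and 15.5% of them at IR, and in 25.0% and 22.5% at MI. Fabp5 had one in 77.2% of Gpnmb-led against 11.7% of non-macrophage wells at IR and in 81.3% against 12.6% at MI. Lgals3, Lipa and Trem2 were likewise more frequent in Gpnmb-led wells at both injuries, Trem2 for example with 43.0% against 0.837% at IR and 56.3% against 0.901% at MI.

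Of the lysosomal genes that passed, Ctsl had the largest fold. On IR replicates 3, 4 and 7 and MI replicates 1, 2 and 3 it was at 1015, 5305, 4559.6, 4657, 8375 and 1938 CPM in Gpnmb-led and 589, 1126, 703, 1019, 929.9 and 1187 CPM in Lyve1-led wells (2.16 ± 0.27, edgeR adjusted p = 5.32e-08), and with 5 wells it was the 1 of 31 tested that passed (2.49 ± 0.26, 0.000975). It was higher in the Gpnmb-led wells of all 6 plates, but 1 well gave 81.9% of its 1456 UMIs on MI replicate 2, 68.9% of its 135 on MI replicate 3 and all 5 on IR replicate 3. With 3 wells Psap (0.96 ± 0.27, 0.0254) and Gla, the alpha-galactosidase (1.08 ± 0.28, 0.0137), rose beside Plin2 and Lipa, and the cathepsin Ctsc fell (-0.70 ± 0.21, 0.0479). Of the 30 tested there 5 rose and 1 fell, 21 had a positive log2 fold change, and the median was 0.09. Plin2, a lipid droplet gene kept in this list, and Lipa are in the lipid list too, so the counts of the lists overlap.

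Of the subunits of the proton pump Atp6v1b2 (0.91 ± 0.25, edgeR adjusted p = 0.0176) and Atp6v1a (0.68 ± 0.21, 0.0479) rose on the 6 plates, 2 of 15 tested outside the rule, with a median of 0.0012 over the list. With 5 wells 0 passed in edgeR or DESeq2, and 4 had an unadjusted p under 0.05. Of the MiT/TFE transcription factors, which drive lysosomal genes, 0 of 3 passed with 5 wells in edgeR or DESeq2 (1 at an unadjusted p under 0.05), and 0 of 2 with 3 wells in edgeR (0). Of 6 genes of osteoclasts and cell fusion 0 passed in edgeR or DESeq2 with 5 wells (0 at an unadjusted p under 0.05), and with 3 wells the collagenase Mmp9 of that list fell among 5.

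**Figure D3:**
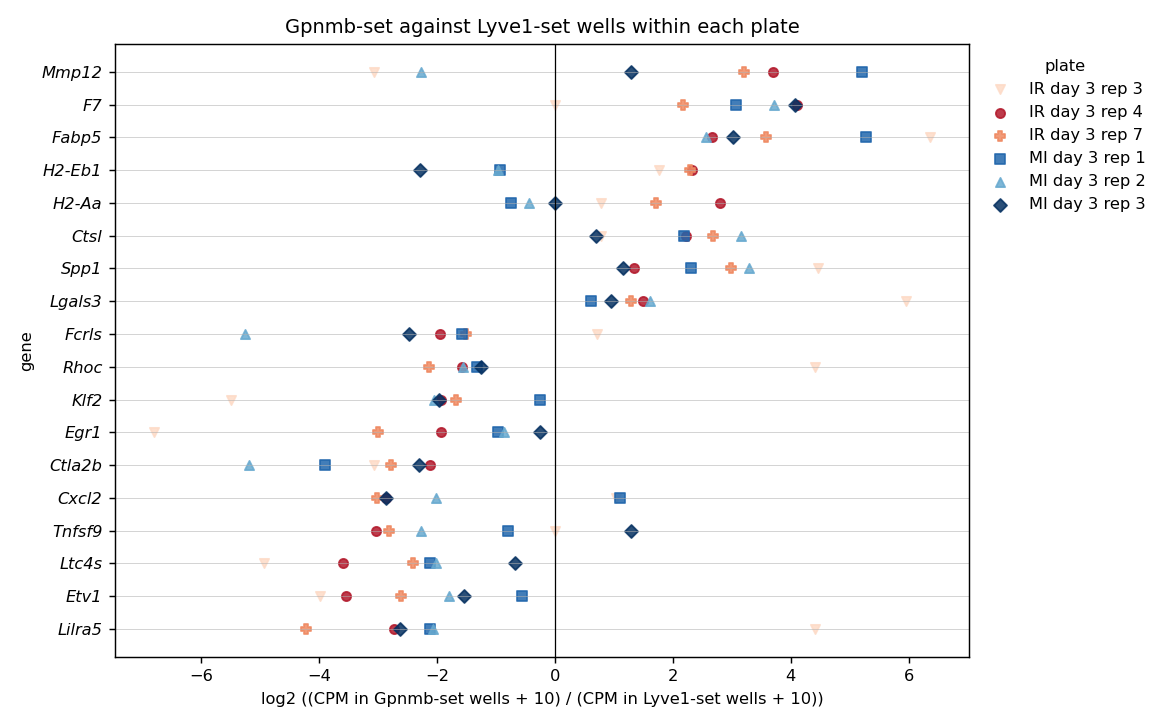
Log2 ratio of CPM (10 added to each) in Gpnmb-led over Lyve1-led wells of the same plate for the 18 genes with the largest changes on IR replicates 4 and 7, with 1 point per plate (IR replicates 3, 4 and 7 and MI replicates 1, 2 and 3) and a line at equal levels. Fabp5, Ctsl, Spp1 and Lgals3 lie right of the line and Klf2, Egr1, Ctla2b, Ltc4s and Etv1 left of it on all 6 plates, while Mmp12, H2-Aa and Cxcl2 scatter to both sides.

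Spp1, Mmp12 and F7 rose as well. Spp1 was at 1827, 11553, 8193, 8648, 13741 and 8615 CPM in Gpnmb-led and 73.6, 4532, 1029, 1746, 1398 and 3857 CPM in Lyve1-led wells (2.32 ± 0.28, edgeR adjusted p = 1.38e-08). It too was higher in the Gpnmb-led wells of all 6 plates. Mmp12, the macrophage elastase, had 375 UMIs in Gpnmb-led against 2 in Lyve1-led wells of IR replicates 4 and 7 (0.0164 with 5 wells, 21.0-fold in summed CPM, counting interval 5.76 to 174), and on MI replicate 1 a single well gave 91.0% of its 122 UMIs. It was lower in the Gpnmb-led wells of IR replicate 3 (0 against 73.6 CPM) and MI replicate 2 (0 against 38.5 CPM). F7, coagulation factor VII, had 313 and 131 UMIs in the Gpnmb-led wells of IR replicates 4 and 7 and 1 and 2 UMIs in their Lyve1-led wells (0.0221 with 5 wells, 16.5-fold in summed CPM, counting interval 5.62 to 80.5). Of 15 repair and matrix genes tested with 3 wells, Spp1, Mmp12 and Syngr1 rose and the growth factor Igf1 fell (-0.76 ± 0.23, 0.0402).

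Cxcl2, Egr1 and Klf2 were among the genes that fell. Cxcl2, a neutrophil chemoattractant, was at 1218, 41.4, 56.0, 54.3, 155 and 158 CPM in Gpnmb-led and 589, 363, 527, 20.0, 661 and 1213 CPM in Lyve1-led wells on IR replicates 3, 4 and 7 and MI replicates 1, 2 and 3 (-2.15 ± 0.32, edgeR adjusted p = 3.19e-06, and -3.12 ± 0.35, 0.00194 with 5 wells). The cytokine Il1b was at 0, 49.6, 76.0, 19.8, 11.5 and 14.4 against 73.6, 407, 0, 6.66, 269 and 12.9 CPM (-1.94 ± 0.51, 0.0137). Cxcl2 was higher in the Gpnmb-led wells of IR replicate 3 (6 against 8 UMIs, at unequal totals) and MI replicate 1 (11 against 3 UMIs), and Il1b in those of IR replicate 7 and MI replicates 1 and 3, so the plates did not all go one way. Tnf fell too (-2.67, 0.00164), so that 3 of 13 inflammatory genes fell and 0 rose. The immediate-early factor Egr1 (-1.56, 0.000175), the transcription factors Klf2 (-1.67, 0.0002) and Etv1 (-3.22, 0.00112), the receptor genes Lilra5 (-4.65, 0.000428) and Fcrls (-2.10, 1.28e-06), the leukotriene synthase Ltc4s (-3.66, 0.00012), Tnfsf9 (-3.03, 0.00758), Ctla2b (-3.31, 1.18e-08) and the GTPase Rhoc (-1.59, 0.000118) fell on the 6 plates and also with 5 wells. Of these, Egr1, Klf2, Etv1, Ltc4s and Ctla2b were lower in the Gpnmb-led wells of all 6 plates.

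Genes of apoptotic cell recognition and uptake moved in both directions. Of 19 tested on the 6 plates 2 rose and 4 fell, with a median of 0.01. Gas6, which bridges dying cells to uptake receptors, fell (-1.97 ± 0.23, edgeR adjusted p = 1.18e-08), as did Pros1, a ligand of the same kind (-1.70 ± 0.37, 0.00164), the Gas6 receptor Axl (-1.72 ± 0.40, 0.00343) and the phosphatidylserine receptor Timd4. Anxa1 (1.40 ± 0.25, 8.03e-05) and Cd300lf (1.88 ± 0.41, 0.0018) rose. With 5 wells Gas6 alone of 19 passed (-1.43 ± 0.27, 0.0407). The fractalkine receptor Cx3cr1 fell of 14 macrophage identity genes (-2.16 ± 0.57, 0.0137).

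The MHC class II genes gave no call on the 6 plates. H2-Aa (2.55 ± 0.47, edgeR adjusted p = 0.038) and H2-Eb1 (2.65 ± 0.49, 0.0386) were higher with 5 wells, 2 of 6 tested, and neither passed with 3 wells (0.0947 and 0.359), where 0 of 5 did in edgeR and 3 had an unadjusted p under 0.05. The call with 5 wells rests on IR plates alone. H2-Eb1 was at 2029.6, 185 and 286 CPM in Gpnmb-led and 589, 29.1 and 50.2 CPM in Lyve1-led wells of IR replicates 3, 4 and 7, and at 19.8, 11.5 and 0 against 46.6, 32.1 and 38.7 CPM on MI replicates 1, 2 and 3, so it was higher in Gpnmb-led wells on the 3 IR plates and lower on the 3 MI plates. H2-Aa was higher on the 3 IR plates, lower on MI replicates 1 and 2 and at 0 in both classes on MI replicate 3. The difference between the injuries was not tested. Of 12 iron and haem genes the transferrin gene Trf fell with 3 wells (-1.69 ± 0.31, 0.000129), and of 10 interferon genes Ifi27l2a fell (-2.06 ± 0.29, 6.58e-07). In edgeR glycolysis genes (11 tested), cell cycle genes (9) and cardiomyocyte genes (13) gave 0 calls on the 6 plates, with 3, 1 and 2 at an unadjusted p under 0.05. Among lists of other cells, Mmp8 of the neutrophil list and Fabp4 of the endothelial list rose, 1 of 2 tested each. The fibroblast (1 tested), mural (2) and dendritic cell (2) lists gave 0 calls in edgeR, with 0, 0 and 2 at an unadjusted p under 0.05, and no gene of the T and NK cell, B cell or erythrocyte lists passed the filter on low counts.

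**Figure D4:**
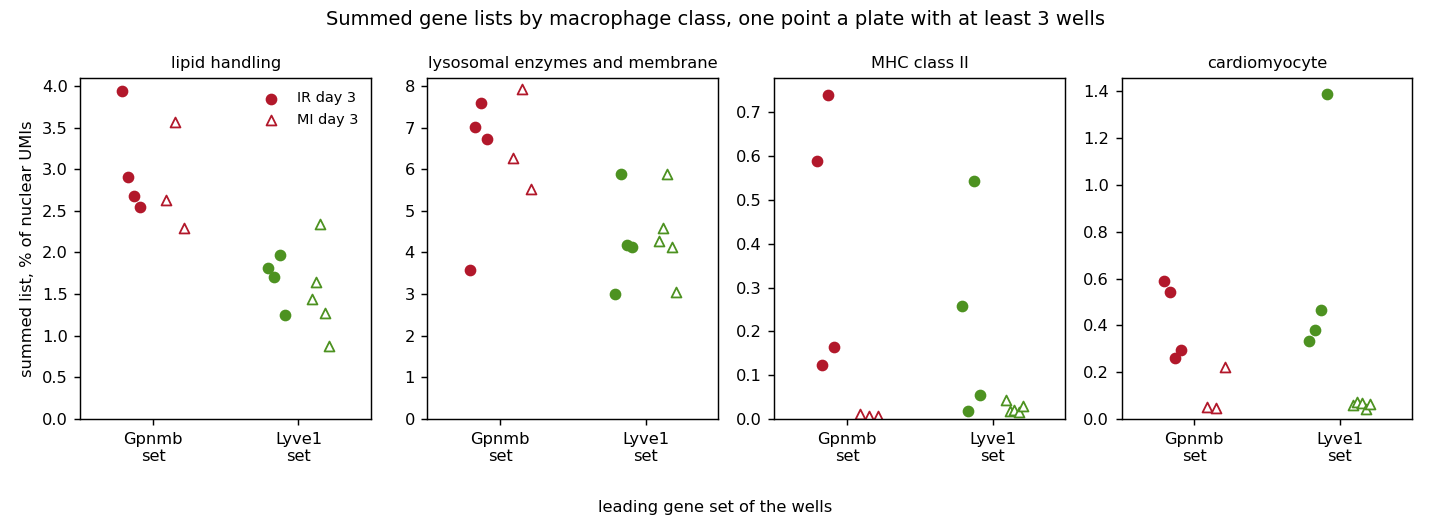
Percent of UMIs taken by the lipid handling, lysosomal, MHC class II and cardiomyocyte lists in the Gpnmb-led and Lyve1-led wells of each day 3 plate with at least 3 wells of the class. Lipid genes span 2.55 to 3.94% (IR) and 2.29 to 3.57% (MI) in Gpnmb-led against 1.25 to 1.97% and 0.880 to 2.35% in Lyve1-led wells, and cardiomyocyte genes in Gpnmb-led wells span 0.259 to 0.589% on IR and 0.0477 to 0.224% on MI plates.

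Gpnmb-led macrophages of permanent and temporary ligation were then compared with each other at day 3, on MI replicates 1, 2 and 3 and IR replicates 3, 4, 6 and 7, which held at least 3 such wells. Of 3212 genes 122 differed (3.8%), 52 higher at MI (1.62%) and 70 lower (2.18%). Hmox1, Mt2 and Gapdh were higher at MI, and all 4 tested MHC class II genes and 9 of 11 cardiomyocyte genes were lower. Several genes that were higher in Gpnmb-led than in Lyve1-led wells did not pass between the injuries: the log2 fold change of MI over IR was 0.75 ± 0.52 for Fabp5 (SE, edgeR adjusted p = 0.517), 0.59 ± 0.55 for Ctsl (0.678), 0.96 ± 0.58 for Lgals3 (0.439) and 0.55 ± 0.63 for Psap (0.748). Atp6v0d1, which passed in neither comparison, was at -0.28 ± 0.36 (0.786). In edgeR and DESeq2 0 of 16 lipid, 31 lysosomal, 15 vacuolar ATPase and 13 macrophage identity genes passed, with 4, 1, 1 and 2 at an unadjusted p under 0.05. IR replicate 3 rests on 4927 UMIs in 4 wells. Without IR replicate 4 or 7 the count of genes that differed fell to 42 or 40.

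Hmox1 was at 9038, 5855 and 4738 CPM on the MI plates and at 0, 1204, 260.2 and 810.3 CPM on the IR plates (3.27 ± 0.55, edgeR adjusted p = 5.73e-05), with 93.6% of its UMIs on MI replicate 3 from 1 well. The metallothionein gene Mt2 was at 346, 155 and 215 against 0, 49.6, 20.8 and 24.0 CPM (2.72 ± 0.38, 2.11e-06). Chi3l3, which encodes the chitinase-like protein Ym1, was at 479, 207 and 1149 against 0, 83.6, 62.4 and 36.0 CPM (3.26 ± 0.44, 1.03e-06). These 3 genes are among those named because the 3 MI plates were above the 4 IR plates. On the plates with 1 or 2 Gpnmb-led wells, which were outside the test, Hmox1 was at 424 and 994 CPM on MI replicates 4 and 5 and 2922 CPM on IR replicate 1, Mt2 at 929 and 40.6 and 0, and Chi3l3 at 141 and 0 and 0, so with these plates the groups overlapped for all 3. Gapdh, a glycolytic enzyme, was at 884, 1024 and 1019 against 203, 259, 249.8 and 98.0 CPM (2.35 ± 0.38, 2.3e-05), the 1 of 9 tested glycolysis genes that passed, although all 9 were positive. Glycolysis genes took 0.759 to 0.886% of UMIs at MI and 0.304 to 0.567% at IR in Gpnmb-led wells, and 0.652 to 0.804% against 0.221 to 0.603% in Lyve1-led wells. Erdr1 (3.08, 1.3e-07), the endocytic gene Ehd1 (2.47, 6.82e-05) and the proteoglycan Sdc4 (2.39, 1.76e-05) rose as well. Mir5109 also passed, but tags of polyadenylated 3′ ends do not measure a mature miRNA, so its values are not given. Some of these genes were also higher at MI in Lyve1-led wells, where the difference was not tested. There Erdr1 was at 239.9, 417 and 219 CPM on MI replicates 1, 2 and 3 and 0, 43.6 and 75.3 CPM on IR replicates 3, 4 and 7, and Gapdh at 779.6, 1045 and 1135 and 147, 239.7 and 50.2 CPM. Hmox1 was at 6190.0, 1058 and 2619 and 736, 2084 and 1531 CPM in them, and these plates overlapped. Counts of Gapdh, Chi3l3 and Erdr1 are uncertain, as each shares sequence with close copies elsewhere. Of 10 iron genes 2 were higher at MI (Hmox1 and Slc48a1) and 1 lower (Tfrc, the transferrin receptor).

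**Figure D5:**
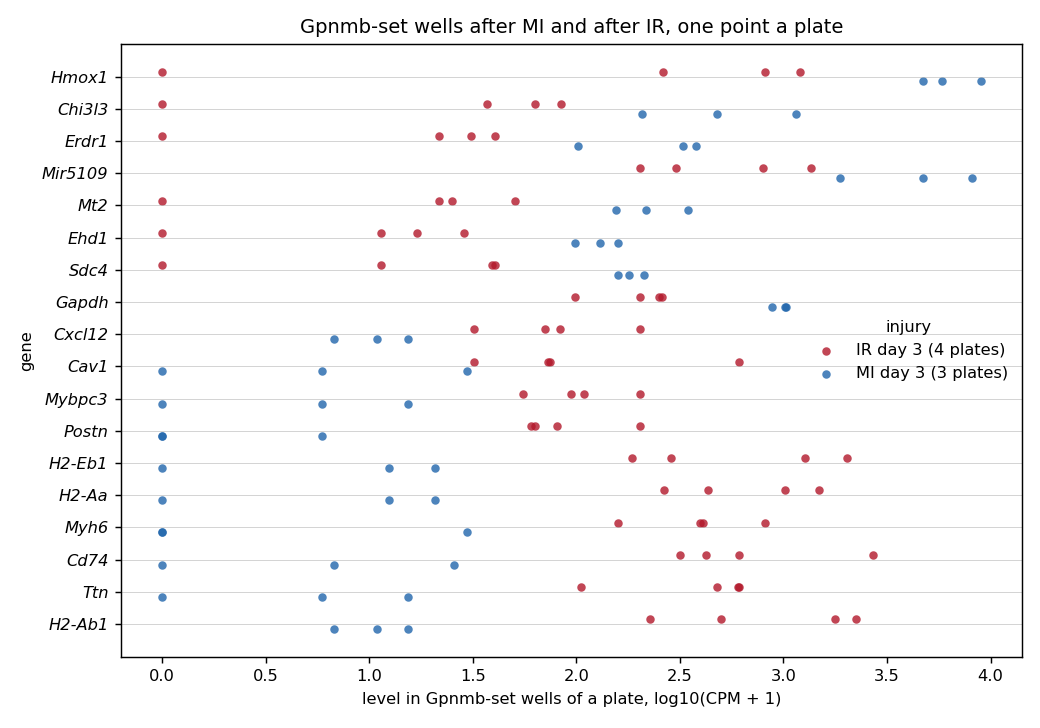
Levels of 18 genes with large differences between Gpnmb-led wells of MI and IR at day 3, as log10(CPM + 1), with 1 point per plate (MI replicates 1 to 3, IR replicates 3, 4, 6 and 7). The genes were chosen for plates that did not overlap, so the separation of the points follows from the choice, and what the plot adds is the spread within each injury, such as Hmox1 from 0 to 1204 CPM at IR.

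All 4 tested MHC class II genes were lower at MI, with a median log2 fold change of -5.90 against 0.02 over all genes. Cd74 was at 24.7, 5.75 and 0 CPM on the MI plates and 609, 422, 2695 and 316 CPM on the IR plates (-6.19 ± 0.74, edgeR adjusted p = 4.86e-08), and H2-Ab1 at 9.88, 5.75 and 14.4 against 2233, 225, 1779.6 and 498 CPM (-6.45 ± 0.71, 1.58e-08). H2-Aa (-5.60, 1.69e-08) and H2-Eb1 (-5.40, 1.26e-07) fell too. The MI side of these folds rests on 4 to 6 UMIs per gene. On these plates the groups did not overlap, but H2-Ab1 was at 0 on IR replicate 1 (2 wells) and at 80.8 CPM on MI replicate 4 (2 wells), and few wells carried the IR values, since 1 well gave 93.6% of the H2-Ab1 UMIs of IR replicate 6 and 1 well all of those of replicate 3. The list took 0.124 to 0.741% of UMIs in Gpnmb-led wells at IR and 0.00574 to 0.0109% at MI. In Lyve1-led wells it took 0.0189 to 0.543% at IR and 0.0165 to 0.0426% at MI, and in non-macrophage wells 0.00103 to 0.0227% and 0.00241 to 0.00780%.

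Cardiomyocyte genes were lower at MI as well. Ttn, the sarcomere protein titin, was at 4.94, 0 and 14.4 CPM on the MI plates and 609, 604, 104 and 478 CPM on the IR plates (edgeR adjusted p = 1.58e-08). That is 2 against 909 UMIs, 120-fold lower in summed CPM (95% counting interval 33.1 to 992). The myosin gene Myh6 had 2 against 564 UMIs (2.85e-08, 74.5-fold lower, 20.5 to 616) and the myosin-binding gene Mybpc3 had 2 against 155 (0.000151, 20.5-fold lower, 5.57 to 170.5). Of 11 tested genes of the list 9 were lower at MI (2 with DESeq2), with a median log2 fold change of -2.61, which holds such low-count genes at their fitted values. The list took 0.259 to 0.589% of UMIs in Gpnmb-led wells at IR and 0.0477 to 0.224% at MI. In non-macrophage wells it took 1.35 to 9.56% and 0.135 to 0.519%, and the part of free cardiomyocyte RNA in the difference was not tested. Postn of the fibroblast list (1 against 112 UMIs, 0.000189, 29.6-fold lower, 5.20 to 1178), Cav1 of the endothelial list (3 against 122 UMIs, 0.00295, 10.7-fold lower, 3.59 to 52.8) and the chemokine Cxcl12 (-2.91, 0.00289) were also lower. A single well gave 57.5% of the Cav1 UMIs of IR replicate 4, and 51.3% and 68.3% of the Cxcl12 UMIs of IR replicates 4 and 7. The endothelial list as a whole overlapped, at 0.0343 to 0.122% of UMIs in Gpnmb-led wells at IR and 0.0258 to 0.0415% at MI. The fibroblast list as a whole overlapped, at 0.0458 to 0.203% of UMIs in Gpnmb-led wells at IR and 0.0529 to 0.125% at MI, and Postn was the 1 gene of it outside the rule that could be tested. Fibroblast genes took 1.26 to 5.95% at IR and 2.58 to 2.92% at MI in non-macrophage wells.

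Of 9 tested interferon and HIN-200 genes 4 were lower at MI (Ifi203, Ifit1, Oasl2 and Rsad2), 0 were positive, and the median log2 fold change was -1.45. Rsad2, an antiviral enzyme, was at 24.7, 0 and 14.4 CPM on the MI plates and at 0, 503, 62.4 and 98.0 CPM on the IR plates (-4.14 ± 0.69, edgeR adjusted p = 5.14e-05). The MI plates overlapped with IR replicate 3, which was at 0. Oasl2 had 1 against 220 UMIs (2.84e-06, 58.1-fold lower, counting interval 10.3 to 2305), Ifit1 had 2 against 308 (1.44e-05, 40.7-fold lower, 11.2 to 337) and Ifi203, of the same HIN-200 family as Ifi202b, had a log2 fold change of -3.43 ± 0.54 (2.16e-05). Ifi203 was at 0 CPM on IR replicate 3 and at 190.2, 239 and 128 CPM on the 3 IR plates that carried Ifi202b. The list took 0.0203 to 0.264% of UMIs in Gpnmb-led wells at IR and 0.0587 to 0.0637% at MI, so the IR plates spread to both sides of the MI plates. Among the remaining lists the chemokine Ccl7 rose of 9 inflammatory genes, the acid phosphatase Acp5 of 4 osteoclast genes, and Mmp14 rose and Igf1 fell of 13 repair genes. No uptake (16 tested), cell cycle (10) or MiT/TFE gene (2) passed in edgeR or DESeq2, with 3, 4 and 0 at an unadjusted p under 0.05.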

How the data were processed

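UMI counts of single cells were taken from 36 plates of 384 wells (13824 wells). Per the labels, the authors mapped reads to GRCm38/mm10 with BWA and deposited raw UMI counts per gene and well. Versions, annotation and read filters were not given in the sources used here. All 174110208 values were whole. With UMIs of 6 bases no count can exceed 4096, which was also the highest value, and no correction for shared UMIs was made. Mitochondrial and spike-in rows were left out of all totals. The sorting gate took living single cells by scatter.

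The members, the lists and the rule were chosen with earlier results of these data known. UMIs were summed per plate and class and tested with edgeR 4.0.16 in R 4.3.3 (filterByExpr, TMM scaling, quasi-likelihood F test, Benjamini-Hochberg adjustment at 0.05), with the plate as a term in comparisons within plates, on plates with at least 5 wells of each class or, where too few plates were left, 3. Genes of the rule stayed in the fit and were not counted as called. DESeq2 1.42.0 was an alternative. CPM is before TMM scaling, and each plate was 1 replicate. The source animal of each plate is not given, and there were fewer mice than MI plates, so p-values measure the spread between plates, which may share a mouse. Some genes, and the comparisons that need them, are not reported here. Named were the 10 genes with the largest log2 fold change in each direction among those past the threshold and of the same sign in every plate pair, or not overlapping between groups, beside the list genes and the genes of the rule with Atp6v0d1. Shares of wells were to be tested, but the genes of the rule set them, so they are described only. Copied wells were searched among wells of 500 UMIs or more by the correlation of 3000 genes between wells of the same position. Intervals and limits for counts of 0 cover counting error only. The gene fits were tested on simulated data. Replicate numbers did not pair plates, as correlations of deviations between the same numbers were -0.000368 to 0.0236. Python 3.11.15, pandas 2.3.3 and scipy 1.17.1 were used.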

Additional observations from a re-analysis of the deposited data

Results flagged for a closer look

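Among the genes named for Gpnmb-led wells and the list levels, without the genes of the rule, 6 of 42 groups of plates held 1 plate far from the others (Dixon's test at 95%), where chance gives about 1 in 20. Replicate 3 of day 3 IR, which has 4 wells and 4927 UMIs, was the distant plate for 5 of them. Its Cav1 was at 609 CPM (31.2 to 73.5 on the others), Cxcl2 at 1218 (10.4 to 56.0), Lilra5 at 203 (0 to 4.59) and Postn at 203 (59.7 to 80.0). Its Atp6v0d1 was at 0 (402 to 447). In 4927 UMIs, 3 UMIs are 609 CPM. Replicate 6 stood apart for Cd74 at 2695 CPM (316 to 609), 84.2% of it from 1 well.

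On the day 14 sham plate that was left out, 6 wells met the rule for Gpnmb-led macrophages. All 6 matched wells of the same position on day 3 IR replicate 6, and the 16 matched wells had a median of 1794.5 UMIs there against 9877 on replicate 6.

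H2-Eb1 differed in direction between the injuries, 1 of the 18 genes with the largest changes against Lyve1-led wells to do so on all 6 plates with at least 3 wells of each class. Its log2 ratio of CPM (10 added to each) in Gpnmb-led over Lyve1-led wells averaged 2.13 on the 3 IR plates (1.77 to 2.32) and -1.39 on the 3 MI plates (-2.28 to -0.93), a difference that was not tested. The MI side rests on 4, 2 and 0 UMIs of H2-Eb1 in Gpnmb-led and 7, 5 and 3 in Lyve1-led wells of MI replicates 1, 2 and 3.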

How the results depend on the processing

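The 18 genes with the largest folds given for each comparison were chosen for plates that all went one way. None of them changed direction under an alternative from the plan that could be run, which that choice largely fixed in advance. Their adjusted p kept its side of 0.05 in 125 of 149 combinations of gene and setting against Lyve1-led wells and in 231 of 240 between MI and IR. List genes outside these 18, such as Fabp4 and Lpl, are not in this tally. The 19 genes against Lyve1-led wells became 47 without a filter on low counts, 9 with DESeq2, 156 and 148 with at least 3 and 2 wells, 10 with 2000 UMIs, 5 after thinning and 42 without the plate term, and 87 to 154 with 3 wells when 1 plate was left out, with 87 and 91 without MI replicates 1 and 2, and 129, 132 and 136 without IR replicates 3, 4 and 7. The 122 genes between MI and IR became 31 with DESeq2, 67 and 73 with at least 5 and 2 wells, and 0 of 50 tested after thinning (8 at an unadjusted p under 0.05). Leaving out 1 plate gave 40 to 136, with 42 without IR replicate 4 and 40 without IR replicate 7. RLE scaling gave 69 higher and 63 lower in place of 52 and 70, and no filter gave 52 and 123. The causes of these changes were not tested. Settings with 2 wells, those without Ifi202b and those leaving out a plate with 3 wells in the comparison with Lyve1-led wells were added after seeing the data.

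The share of Gpnmb-led wells among macrophage wells, MI minus IR at day 3, was -46.1 percentage points, between -63.4 and -35.6 when 1 plate was left out. Under every alternative run it moved by less than the SD between IR plates (30.3), but in some by more than that between MI plates (4.45). With the replicate number as a block it was -35.9 over 2 shared numbers, and among all wells it was -9.57 over 4. No block was possible in the gene comparison of MI and IR, which shares 1 number. Also not possible were 10 wells per plate in both gene comparisons, leaving out a plate in the 2-plate comparison with Lyve1-led wells, and a comparison with day 1 IR, which holds no Gpnmb-led well.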

Other observations

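The 1 Gpnmb-led well of day 14 IR (replicate 3) held 6679 UMIs and 2425 genes. Gpnmb was at 1048 CPM in it, and the invariant chain gene Cd74 at 7935 CPM. With 1 well there is no replicate and no comparison.

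Cell cycle genes were counted in 130 of the 131 Gpnmb-led wells, with a median of 0.146% and a maximum of 1.19% of UMIs, and 7 wells were at 1% or more.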
